A study of Mus musculus with 2 samples.

Results

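The calcium store, release and buffering genes of skeletal muscle were followed through maps of open chromatin in the gastrocnemius, the large calf muscle. They are 8 genes taken by symbol, Ryr1, Atp2a1, Atp2a2, Sln, Casq1, Casq2, Srl and Pvalb, out of 21851 protein-coding genes with a coding transcript in the basic set of GENCODE release M21. All 8 were found, and each was read over its gene span and 10 kb on either side. The rule used names only and no measured value, though earlier results of these data were known when the genes were chosen.

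The study mapped DNase I cleavage, which falls mostly on DNA that is not wrapped around nucleosomes. It had 1 group, of 2 libraries labelled biological replicates 1 and 2. Both came from gastrocnemius tissue of male B6CASTF1/J mice, the first-generation cross of C57BL/6J and CAST/EiJ, at 36 days of age, and the labels name no treatment or engineered allele. The labels number the animals separately but give them the same donor entry, and with 1 group there is no contrast between conditions and no test. The tissue holds fibres together with vessel, nerve, connective and immune cells, so a weak peak can be a site open in few nuclei or a site weakly open in many, and these cannot be told apart. Alleles are not separated in the files used here, and the mm10 coordinates and all sequences below are those of the C57BL/6J reference.

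Contraction starts when voltage sensors of the fibre surface open the ryanodine receptor, the release channel of the sarcoplasmic reticulum, and calcium leaves that store for the cytosol. Calcium pumps of the SERCA family carry it back at the cost of ATP, small membrane peptides such as sarcolipin restrain them, calsequestrins hold calcium inside the store, and parvalbumin binds it in the cytosol of fast fibres. Fast and slow fibres differ in the members they use: Atp2a1 is the main pump of fast fibres and Atp2a2 that of slow fibres and heart. Casq1 is the main calsequestrin of fast fibres, and Casq2 is that of heart and is also made in slow fibres.

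Each library came with a shorter list of 50760 and 49230 peaks (replicates 1 and 2) and a longer list of 83409 and 83736. A peak's value is the authors' own signal. Its scaling is not given in the sources used here, and the median was 1.76 in replicate 1 and 1.33 in replicate 2, so a value is also given here as a percentile, the percentage of peaks of the same shorter list that lie lower. Footprints, short stretches protected from cleavage inside open DNA, numbered 155037 and 234134. The bases whose cleavage rate reached a false discovery rate (q) of 0.05 numbered 22615670 and 29867853, so replicate 2 had more of both. The number of reads is not given with the files, so no counting interval was computed. Of 8 fibre genes used to check the tissue, Acta1, Ckm, Des, Mylpf, Myod1 and Ttn had a promoter peak in both libraries, Tnnt3 in replicate 1 and Myog in replicate 2, while 0 of 5 cardiomyocyte genes, 0 of 4 macrophage and lymphocyte genes and 0 of 3 neuronal genes had one in both. Of other cell types, both fibroblast genes (Pdgfra and Col1a1), 1 of 3 smooth muscle and pericyte genes (Myh11), 1 of 3 endothelial genes (Tie1) and 0 of 2 satellite cell genes did.

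A promoter peak is a peak of the shorter list within 500 bp of the start of a basic coding transcript. It was present in both libraries at 4 of the 8 genes, Ryr1, Atp2a1, Atp2a2 and Casq2, beside 54.2% of all 21851 protein-coding genes. Casq1 and Pvalb had it in replicate 1 alone, beside 1.59% of all genes, and Srl had it in replicate 2 alone, beside 2.88%. Sln had none, beside 41.3%. Taken singly, replicate 1 had the peak at 6 of the 8 genes, beside 55.8%, and replicate 2 at 5, beside 57.1%. At or above the median value of its list in both libraries, it was present at 3, Ryr1, Atp2a1 and Atp2a2, beside 47.5%. The call rested on the list: in the longer lists 7 of the 8 genes, all but Sln, had a promoter peak in both libraries, beside 59.0% of all genes. By the base-wise test, a base with q at or below 0.05 within 500 bp of a coding start was present in both libraries at the same 7 genes, beside 59.9% of all genes, and one at or below 0.001 at 5, namely the 4 genes above and Srl, beside 54.9%. Where present the promoter peaks were mostly modest, since only Atp2a2 came near the medians of 5.57 and 3.77 over the 12197 and 12478 genes with one.

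**Figure D1:**
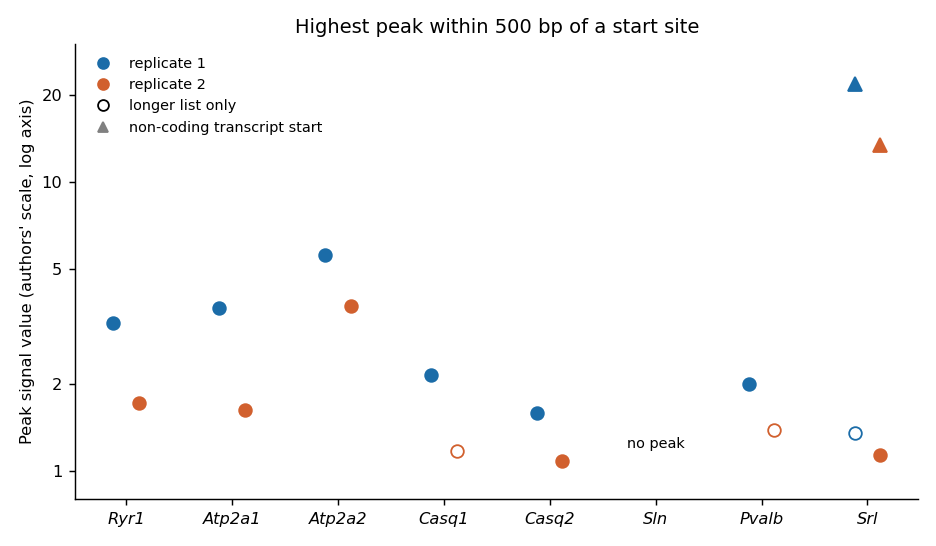
Highest peak value within 500 bp of a coding start for each gene, on a log axis, with 1 point per library; open circles are peaks found in the longer list only, and triangles mark the start of non-coding Srl transcripts. Replicate 1 lies above replicate 2 at each gene with a filled circle for both, Atp2a2 is highest among the coding starts, and the Srl triangles stand at 21.8 and 13.4.

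Ryr1 encodes the release channel and spans 122 kb of chr7:29003344-29125179 on the minus strand (ENSMUSG00000030592.18). Its promoter peak had a value of 3.25 in replicate 1 (74.7th percentile, chr7:29125101-29125300) and 1.72 in replicate 2 (61.4th percentile, chr7:29125046-29125200). The lowest q within 500 bp of the start was 1.19e-10 and 3.50e-08. The part of this peak before the first exon is printed because it carried both shared footprints of the promoter, each over a GGGCGG box of the kind bound by Sp and Klf factors. A footprint is called shared when a footprint of replicate 1 overlaps one of replicate 2, and here and below capitals mark the bases of replicate 1's shared footprints, read 5′ to 3′ on the strand of the gene. The second sequence lies upstream and is printed for its wide footprint of 31 bp in replicate 1 and 30 bp in replicate 2.
Ryr1 promoter, chr7:29125180-29125300, minus strand: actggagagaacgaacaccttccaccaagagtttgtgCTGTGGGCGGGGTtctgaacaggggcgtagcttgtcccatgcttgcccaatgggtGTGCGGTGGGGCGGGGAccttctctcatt
Ryr1 upstream, chr7:29126645-29126791, minus strand: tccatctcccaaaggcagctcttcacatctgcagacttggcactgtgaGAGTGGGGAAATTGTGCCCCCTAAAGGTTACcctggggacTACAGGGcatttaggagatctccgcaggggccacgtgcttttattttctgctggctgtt

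Along with the promoter, Ryr1 had 4 further regions with a peak of each library, called replicated regions here. The upstream region (chr7:29126645-29126791, intergenic) had values of 2.44 and 1.41. A region 1288 bp after the gene start (chr7:29123741-29124040), annotated as exon of a retained-intron transcript, had 2.71 and 1.33 and held CAGCTG, the E-box preferred by MyoD, at 3 positions. Both other regions were intronic and lay 81658 and 85368 bp after the gene start, with 2.80 and 1.69 at chr7:29043430-29043612 and 2.13 and 1.31 at chr7:29039721-29039900. The first of these held a footprint of 28 bp in replicate 1 and 29 bp in replicate 2 with the same left end. So the highest replicated site of this long gene was its promoter in both libraries, and the first of both intronic sites came close to it. In the shorter lists, replicate 1 alone had a peak of 2.87 at chr7:29124141-29124360, where the longer list of replicate 2 held 0.894. Replicate 2 alone had one of 1.49 at chr7:29001244-29001370, 172 bp from the start of an annotated transcript of Map4k1, the neighbouring gene. The longer list of replicate 1 held 1.08 there.

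Atp2a1 encodes SERCA1, the pump of fast fibres, on the minus strand of chr7:126445858-126463108 (ENSMUSG00000030730.12). Its promoter peak had a value of 3.66 in replicate 1 (77.8th percentile) and 1.62 in replicate 2 (59.1st percentile), at chr7:126463062-126463268 and chr7:126463061-126463258. This ratio of 2.26 between libraries was the highest of all replicated regions of the 8 genes. The promoter had 1 footprint in replicate 1 and 2 in replicate 2, and none was shared. It is printed beside the Ryr1 promoter for that contrast, together with the next region upstream, which had 3 shared footprints. In the promoter sequence, CAGCTG occurs at chr7:126463123-126463128, just before the first exon.
Atp2a1 promoter, chr7:126463109-126463268, minus strand: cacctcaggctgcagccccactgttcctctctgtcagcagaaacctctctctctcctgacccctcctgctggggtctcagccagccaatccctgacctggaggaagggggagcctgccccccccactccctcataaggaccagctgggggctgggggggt
Atp2a1 upstream, chr7:126464086-126464385, minus strand: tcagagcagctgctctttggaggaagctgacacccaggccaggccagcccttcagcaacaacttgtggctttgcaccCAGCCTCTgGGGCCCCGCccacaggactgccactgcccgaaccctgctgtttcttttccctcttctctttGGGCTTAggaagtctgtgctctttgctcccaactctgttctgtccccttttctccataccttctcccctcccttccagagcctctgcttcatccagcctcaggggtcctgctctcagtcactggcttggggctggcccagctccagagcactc

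The upstream region (chr7:126464058-126464413, intergenic, 950 bp before the start) had values of 2.61 and 2.01. A second upstream region (chr7:126465661-126465962) had 2.45 and 1.36. A region inside the gene, centred 3684 bp after the start (chr7:126459267-126459580), had 2.18 and 1.36. Its peak in replicate 1 was intronic, and its peak in replicate 2 reached an exon at one edge. The order of these sites differed between libraries: the promoter was highest in replicate 1, and the region 950 bp upstream was the highest replicated one in replicate 2. Replicate 2 alone had a further peak of 2.30 between both upstream regions (chr7:126464841-126465120), where 163 bases in replicate 1 also had a q of 0.05 or lower.

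The 3′ part of Atp2a1 differed between the libraries. More than 5 kb after the gene start, replicate 2 alone had 16 peaks in 11 regions from chr7:126441796 to chr7:126450940, which cover 5901 bp within 9.145 kb. Their values ran from 0.440 to 1.66, from the 12.4th to the 59.9th percentile, so the stretch was made of many low peaks and not of a few high ones. In the 5 kb that were densest in replicate 2 (chr7:126443948-126448947) 100% of bases had a q of 0.05 or lower in replicate 2 and 2.82% in replicate 1. As the window was picked on replicate 2, this gap is in part fixed by that choice. The stretch covers the last exons of Atp2a1 and the converging end of Rabep2 (chr7:126428759-126449245, plus strand), an endosomal trafficking gene, so it cannot be assigned to either gene. It includes the start at chr7:126447645 of an Atp2a1 transcript outside the basic set, and its highest peak (chr7:126444421-126444960) lies over an annotated Rabep2 start, where the longer list of replicate 1 had a peak of 1.28 (chr7:126444781-126444840).

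**Figure D2:**
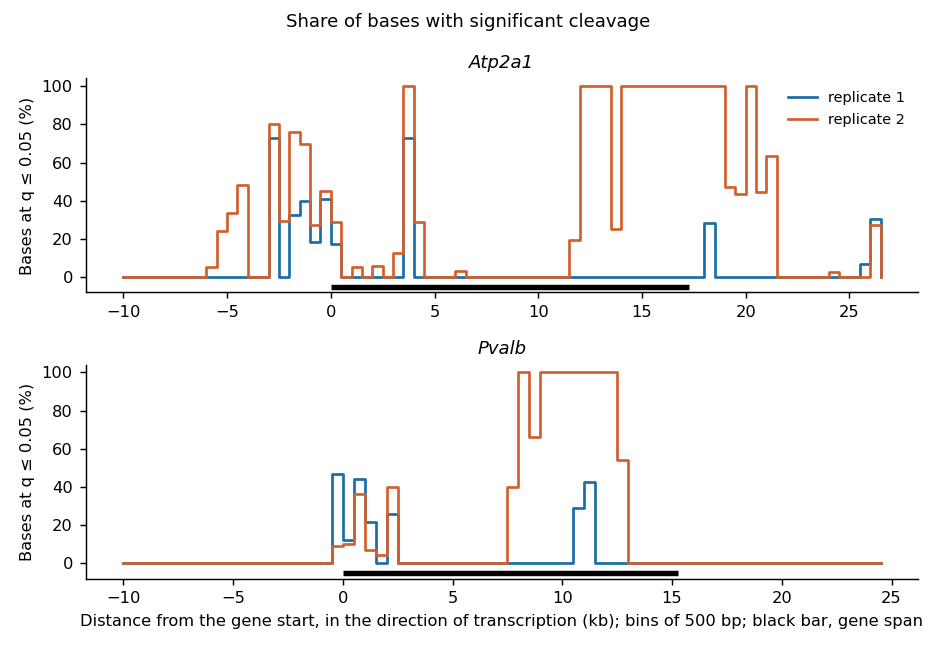
Percentage of bases with q at or below 0.05 in bins of 500 bp along Atp2a1 and Pvalb, with distance from the gene start in kb in the direction of transcription; lines are libraries and the black bar is the gene span. Both libraries rise near the gene start, and replicate 2 alone holds 100% in adjoining bins in the 3′ part of each gene.

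Pvalb showed the same difference. It encodes parvalbumin, the cytosolic buffer that speeds relaxation of fast fibres, on the minus strand of chr15:78191114-78206400 (ENSMUSG00000005716.16). Replicate 2 alone had 6 low regions from chr15:78193578 to chr15:78198587, all intronic, with values from 0.322 to 0.789. In the 5 kb picked in the same way as densest in replicate 2 (chr15:78193578-78198577) 95.3% of bases had a q of 0.05 or lower in replicate 2 and 7.16% in replicate 1. Amid them lay the only replicated region of Pvalb (chr15:78195121-78196000, intronic), with values of 1.81 and 1.36 and 3 shared footprints.

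Measured over the gene body more than 1 kb from any annotated start, the share of bases with a q of 0.05 or lower was 2.56% in replicate 1 and 26.4% in replicate 2 for Atp2a1, and 3.79% and 39.4% for Pvalb. Among 19516 genes with at least 1 kb of such body, the median was 0 in both libraries and the 99th percentile was 10.99% and 29.97%. Atp2a1 ranked 1710th and 241st, and Pvalb 977th and 122nd. The other 6 genes differed by fewer percentage points, in either direction: Casq1 had 8.65% and 11.9%, Srl 2.78% and 3.58%, Ryr1 0.920% and 0.933%, Casq2 1.61% and 1.35%, Atp2a2 0.287% and 1.47%, and Sln 3.09% and 0.589%. Most genes of the fibre list with a value were higher in replicate 2: Acta1 had 12.3% and 98.2%, Myog 10.3% and 17.1%, Ckm 2.35% and 9.74%, Myod1 0% and 6.95%, and Ttn 0.278% and 2.66%. Tnnt3 was lower there, with 4.44% and 0%, and Des had 0% in both. Of the fibroblast genes, Col1a1 had 1.37% and 23.8%, whereas Pdgfra had 0% and 0.129%. Replicate 2 had more significant bases and footprints over the whole genome as well, and the part of that surplus in the values of Atp2a1 and Pvalb was not tested.

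Near its start Pvalb had few, separate peaks. Its promoter peak of 2.00 in replicate 1 (56.0th percentile, chr15:78206481-78206569) had no counterpart in the shorter list of replicate 2, whose longer list held 1.196 at chr15:78206345-78206445 and 1.38 at the internal coding start (chr15:78204201-78204427), where the longer list of replicate 1 held 1.22 (chr15:78204301-78204384). The lowest q near the coding starts was 3.66e-05 and 0.00592. A peak of 3.49 inside the gene, 949 bp after the start (chr15:78205341-78205560), was also in the shorter list of replicate 1 alone, although the longer list of replicate 2 gave 1.48 there. Parvalbumin also marks inhibitory neurons. At the neuronal genes Gad1, Gad2 and Snap25 the shorter lists of replicates 1 and 2 held no promoter peak. Sites open in few nuclei may be missed by these lists, so this absence does not tell which nuclei held the Pvalb sites. That was not tested.

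Atp2a2 encodes SERCA2, the pump of slow fibres and heart and, as another splice form, of most other cells, on the minus strand of chr5:122453513-122502225 (ENSMUSG00000029467.15). It had the highest promoter peak of the 8 genes at a coding start, with 5.58 in replicate 1 (86.3rd percentile, chr5:122502161-122502480) and 3.73 in replicate 2 (84.6th percentile, chr5:122502141-122502700). These are close to the medians of all promoter peaks. A second region inside the gene, 602 bp after its start (chr5:122501385-122501860), had 1.63 and 1.43, and no further replicated region lay within 10 kb. The nearest one outside the gene was 27.17 kb away, so within its window every peak of Atp2a2 in both shorter lists lay near its start. Its promoter also had the highest CpG content: G and C made up 80.8% of the 500 bp centred on its outermost coding start, and the observed over expected CpG ratio was 1.05, against 0.119 to 0.473 at the other 7 genes and a median of 0.611 over all genes. The sequence is printed to show this and its shared footprint over GGGCGG at the 3′ end.
Atp2a2 promoter, chr5:122502313-122502612, minus strand: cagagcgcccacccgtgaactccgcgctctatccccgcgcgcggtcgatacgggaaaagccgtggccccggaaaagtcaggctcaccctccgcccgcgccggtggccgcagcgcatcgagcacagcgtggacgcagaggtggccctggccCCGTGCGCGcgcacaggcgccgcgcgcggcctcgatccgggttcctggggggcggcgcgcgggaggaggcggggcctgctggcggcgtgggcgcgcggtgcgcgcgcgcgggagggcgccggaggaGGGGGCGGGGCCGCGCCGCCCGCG

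Sln encodes sarcolipin, a small peptide that binds SERCA pumps and lowers their calcium transport, and in adult mice is known mainly from atria and slow muscle. The gene lies on the plus strand of chr9:53850164-53854560 (ENSMUSG00000042045.6). It had no peak in either shorter list and no footprint in either library. A single peak of 0.481 in the longer list of replicate 1 (chr9:53852341-53852440) was inside the gene and away from its start. In the 24.4 kb examined 105 bases of replicate 1 and 20 of replicate 2 had a q of 0.05 or lower, 15 of them in both. The nearest replicated region was 143.6 kb away. Sln was the only one of the 8 genes with no replicated region, and an open site too weak for these lists was not detectable at this depth.

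Casq1 encodes the main calsequestrin of fast fibres, the main calcium-binding protein inside their store, on the minus strand of chr1:172209894-172219868 (ENSMUSG00000007122.11). Its strongest site was not the promoter but the intronic region chr1:172217221-172217420, centred 2547 bp after the start, with a value of 9.62 in replicate 1 (94.4th percentile) and 5.88 in replicate 2 (93.6th percentile). It held 4 shared footprints. The widest, 32 bp in replicate 1 and 34 bp in replicate 2, lies over a match to a core of the CTCF motif, which was added to the search after the sequence had been seen. The next highest, regions at the neighbouring Pea15a aside, lay 653 bp upstream of the start (chr1:172220521-172220775), with 4.66 and 2.19 and a shared footprint of 24 bp in replicate 1 and 14 bp in replicate 2. Both are printed because they had higher values than the start of Casq1 in both libraries.
Casq1 intron, chr1:172217221-172217420, minus strand: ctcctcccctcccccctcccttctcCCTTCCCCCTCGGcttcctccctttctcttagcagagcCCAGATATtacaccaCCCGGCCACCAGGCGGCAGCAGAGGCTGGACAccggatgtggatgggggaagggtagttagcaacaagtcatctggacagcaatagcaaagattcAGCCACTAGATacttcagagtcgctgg
Casq1 upstream, chr1:172220521-172220775, minus strand: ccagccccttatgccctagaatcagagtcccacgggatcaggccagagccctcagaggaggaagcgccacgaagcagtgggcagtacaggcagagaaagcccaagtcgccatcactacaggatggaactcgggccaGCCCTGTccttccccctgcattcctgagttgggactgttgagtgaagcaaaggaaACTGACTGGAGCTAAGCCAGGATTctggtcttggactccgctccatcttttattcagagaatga

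At the start itself, Casq1 had a peak of 2.15 in replicate 1 (59.4th percentile, chr1:172219841-172220160). Replicate 2 had 1.17 there in the longer list only (chr1:172219821-172220100), and the lowest q was 9.25e-10 and 0.00234. With a window of 1000 bp in place of 500 bp, Casq1 gained a promoter peak in both libraries through the upstream region, which made the count 5 of 8 beside 55.5% of all genes. Replicate 2 alone had a peak of 1.49 farther upstream (chr1:172221468-172221704). The remaining 2 replicated regions, with 2.26 and 1.55 and with 4.46 and 2.81, lie at the start of the neighbouring Pea15a, downstream of Casq1.

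Casq2 encodes the calsequestrin of heart, also made in slow fibres, on the plus strand of chr3:102086415-102146514 (ENSMUSG00000027861.13). Its promoter peak was the weakest of those present in both libraries, with 1.59 in replicate 1 (44.3rd percentile, chr3:102085841-102086060) and 1.08 in replicate 2 (39.5th percentile, chr3:102085841-102086050). The left ends are the same in both lists, and the lowest q was 4.10e-10 and 2.71e-07. The peak lies 355 bp before the start, so it was lost when the window was narrowed to 100 bp, which left 3 of 8 genes beside 49.4% of all. An intronic region (chr3:102095541-102095847) had 1.78 and 0.999, and an upstream region (chr3:102081954-102082148) had 1.42 and 0.657. Each of the 3 replicated regions of Casq2 was under the median peak value in replicate 2, although the calls recurred in both libraries. Of the cardiomyocyte genes set beside it, Gata4, Nppa, Tbx5 and Myl7 had no promoter peak and Hand2 had one in replicate 2 alone. Which nuclei held the Casq2 sites was not tested. The promoter sequence is printed for the CAGCTG match near its 5′ end and the shared footprint that lies apart from it.
Casq2 promoter, chr3:102085841-102086060, plus strand: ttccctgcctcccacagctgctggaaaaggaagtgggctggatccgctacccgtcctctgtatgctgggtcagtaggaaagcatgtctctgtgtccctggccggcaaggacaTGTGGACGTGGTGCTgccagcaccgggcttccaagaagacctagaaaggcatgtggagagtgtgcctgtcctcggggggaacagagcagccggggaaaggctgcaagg

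Srl encodes sarcalumenin, a calcium-binding glycoprotein of the store's lumen, on the minus strand of chr16:4480216-4541816 (ENSMUSG00000022519.14). It had the highest values and the most replicated regions of the 8 genes. Its strongest region, chr16:4541841-4542080, had 21.8 in replicate 1 and 13.4 in replicate 2, the 99.9th percentile of both lists. It lies 25 bp upstream of the start of transcripts that GENCODE lists as non-coding, while the basic coding transcripts start at chr16:4523075, farther into the gene. At that coding start replicate 2 had 1.14 (42.0th percentile, chr16:4522890-4523126) and replicate 1 had 1.36 in its longer list only. Counting the start of every annotated transcript therefore gives Srl a promoter peak in both libraries, and 5 of 8 genes beside 55.7% of all. The region held 5 shared footprints of 37, 41, 32, 36 and 13 bp in replicate 1. The sequence printed leaves out bases that RefSeq, though not GENCODE, annotates as exon of predicted Srl transcripts, and so holds those of 32 and 36 bp whole, those of 41 and 13 bp in part and not that of 37 bp.
Srl outer start, chr16:4541909-4542080, minus strand: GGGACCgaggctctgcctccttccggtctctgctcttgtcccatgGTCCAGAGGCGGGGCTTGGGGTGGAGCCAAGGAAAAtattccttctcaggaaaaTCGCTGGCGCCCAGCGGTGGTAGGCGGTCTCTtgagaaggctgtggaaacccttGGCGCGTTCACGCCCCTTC

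Srl had 5 more replicated regions, all more than 1 kb from any annotated start. The highest was intergenic, past the 3′ end of the gene (chr16:4475141-4475380), with 9.27 in replicate 1 (94.0th percentile) and 11.05 in replicate 2 (99.6th percentile). It was the only one of the 25 replicated regions of the 8 genes with a higher value in replicate 2. It held the palindrome bound by NRF1 at 2 positions, each inside a shared footprint of 22 and 48 bp in replicate 1 and 23 and 51 bp in replicate 2. An intronic region (chr16:4489141-4489380) had 5.57 and 4.86 and a footprint of 41 and 45 bp. Another (chr16:4512661-4513080) had 3.66 and 2.04, and its shared footprint of 27 bp at chr16:4512982-4513008 covers a CAGCTG. These sequences are printed because they held the wide, recurring footprints of the distal sites.
Srl downstream, chr16:4475141-4475380, minus strand: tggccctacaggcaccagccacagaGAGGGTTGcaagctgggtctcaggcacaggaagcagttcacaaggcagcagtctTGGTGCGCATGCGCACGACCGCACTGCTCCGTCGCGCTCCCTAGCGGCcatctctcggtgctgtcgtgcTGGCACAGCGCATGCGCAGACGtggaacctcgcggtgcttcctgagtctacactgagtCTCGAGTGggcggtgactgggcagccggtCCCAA
Srl intron, 3′ side, chr16:4489141-4489380, minus strand: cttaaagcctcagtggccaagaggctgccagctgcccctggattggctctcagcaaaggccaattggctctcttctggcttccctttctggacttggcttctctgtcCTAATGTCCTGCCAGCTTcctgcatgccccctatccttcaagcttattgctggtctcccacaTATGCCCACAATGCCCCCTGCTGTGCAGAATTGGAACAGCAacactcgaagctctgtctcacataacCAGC
Srl intron, 5′ side, chr16:4512721-4513020, minus strand: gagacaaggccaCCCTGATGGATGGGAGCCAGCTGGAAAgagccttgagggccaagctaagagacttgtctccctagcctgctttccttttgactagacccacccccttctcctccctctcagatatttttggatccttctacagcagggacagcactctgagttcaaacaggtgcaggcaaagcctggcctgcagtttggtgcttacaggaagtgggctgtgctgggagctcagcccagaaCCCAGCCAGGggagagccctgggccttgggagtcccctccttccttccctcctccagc

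The last 2 regions of Srl were lower. The intronic chr16:4500721-4500920 had 2.61 and 1.28 and held TGACGTCA, the cyclic AMP response element, outside its shared footprint. The region chr16:4551161-4551401, over an exon of the neighbouring Tfap4, had 1.504 and 1.48. In the shorter lists, replicate 1 alone had peaks of 3.34 downstream (chr16:4472821-4473000) and 1.71 in an intron (chr16:4521840-4521960). The longer list of replicate 2 held 0.953 and 0.651 at these sites. Replicate 2 alone had 0.736 at chr16:4522370-4522440. Srl thus had high sites at its outer start, inside the gene and beyond its end in both libraries.

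**Figure D3:**
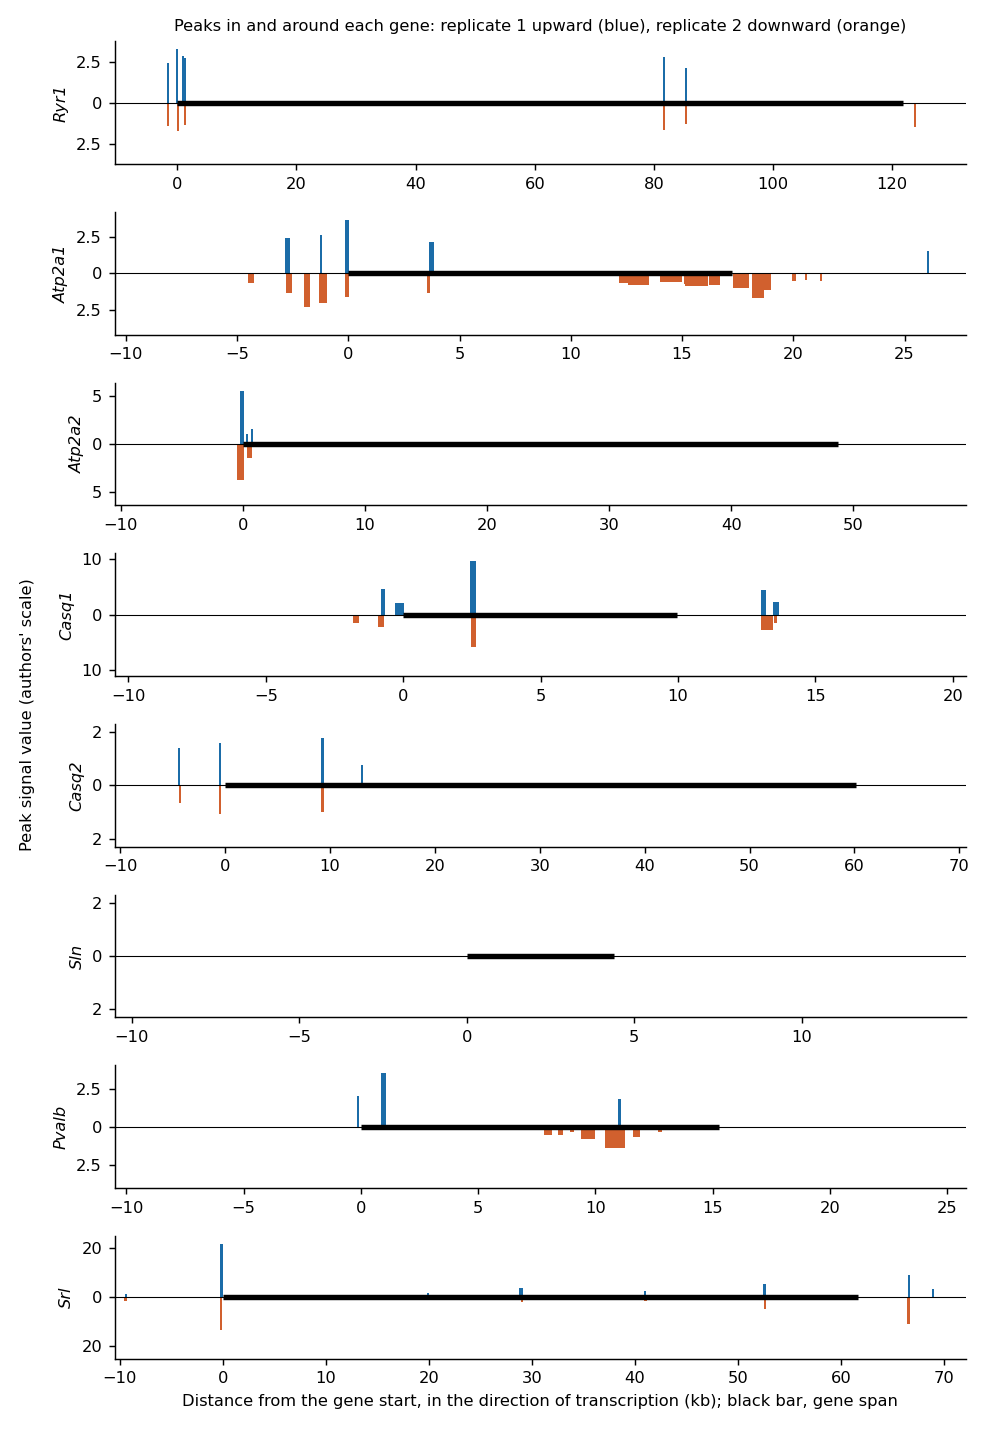
Peaks of the shorter lists along each gene and 10 kb either side, with distance from the gene start in kb in the direction of transcription and the authors' signal value as bar height, replicate 1 upward and replicate 2 downward, each gene with its own vertical scale. Srl has its highest bars at the outer start and past the 3′ end, Casq1 inside the gene, Atp2a2 at the start alone, Sln has no bar, and the low replicate 2 bars of Atp2a1 and Pvalb lie in their 3′ parts.

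Over all 8 genes, 57 merged regions of the shorter lists were found: 25 had a peak of each library, 9 were in replicate 1 alone and 23 in replicate 2 alone. Over the genome 51.2% of 63849 merged regions were replicated. Most of the surplus of replicate 2 lay around the 3′ end of Atp2a1 and inside Pvalb, which hold 11 and 6 of its 23 regions. Of the 25 replicated regions, 18 were at or above the median value in both libraries, beside 59.3% of all 32662 replicated regions. By gene, the replicated regions numbered 5 for Ryr1, 4 for Atp2a1, 2 for Atp2a2, 4 for Casq1, 3 for Casq2, 0 for Sln, 1 for Pvalb and 6 for Srl, with a median of 3.5 beside 1 over all genes. At least 1 was present at 7 of the 8 genes, beside 69.7% of all genes. Those more than 1 kb from any start numbered 14 and were found at 6 of the 8, beside 32.2%. Longer genes have longer windows, from 24.4 kb for Sln to 141.8 kb for Ryr1, and the part of window length in these counts was not tested.

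**Figure D4:**
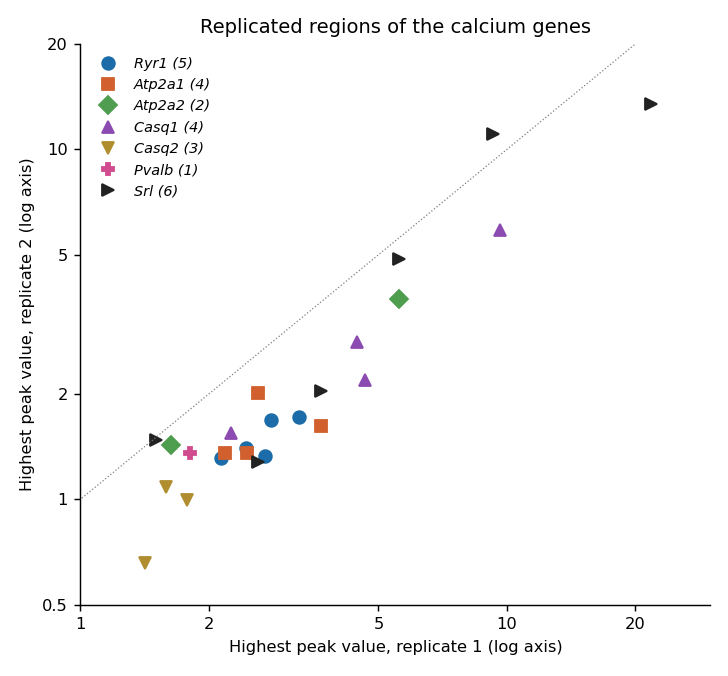
Highest peak value of each of the 25 replicated regions, replicate 1 against replicate 2 on log axes, with a symbol per gene, the number of regions in brackets and the dotted line where both values are equal. A single Srl region, at 9.27 and 11.05, lies above the line.

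The value in replicate 1 divided by that in replicate 2 ran from 0.839 to 2.26 over the 25 regions, with a median of 1.62, and 1 of 25 was below 1. Over all replicated regions the median was 1.36 and 21.3% were below 1. Since the scaling of the values is not given, these ratios describe the lists and not a difference between the samples. Within each library the order of the genes by their highest replicated region was nonetheless alike at the top: Srl, then Casq1, then Atp2a2.

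Footprints in the 8 windows numbered 127 in replicate 1 and 232 in replicate 2, and 73 of replicate 1 were shared. At least 1 was shared at 7 of the 8 genes, beside 70.6% of all genes. Srl had 23 shared footprints, Casq1 12, Ryr1 11, Atp2a1 9, Pvalb 8, Atp2a2 5, Casq2 5 and Sln 0, with a median of 8.5 beside 3 over all genes. In replicates 1 and 2, Atp2a1 had 14 and 82 footprints, Pvalb 12 and 32, Casq1 21 and 30, Atp2a2 10 and 16, Srl 37 and 39, Casq2 12 and 13 and Ryr1 21 and 20, so the gap was widest at Atp2a1 and Pvalb. Of the footprints of replicate 2, 50 at Atp2a1 and 6 at Pvalb lay in the low regions that replicate 2 alone had more than 5 kb after the gene start, and 14 more at Pvalb lay in its replicated region.

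**Figure D5:**
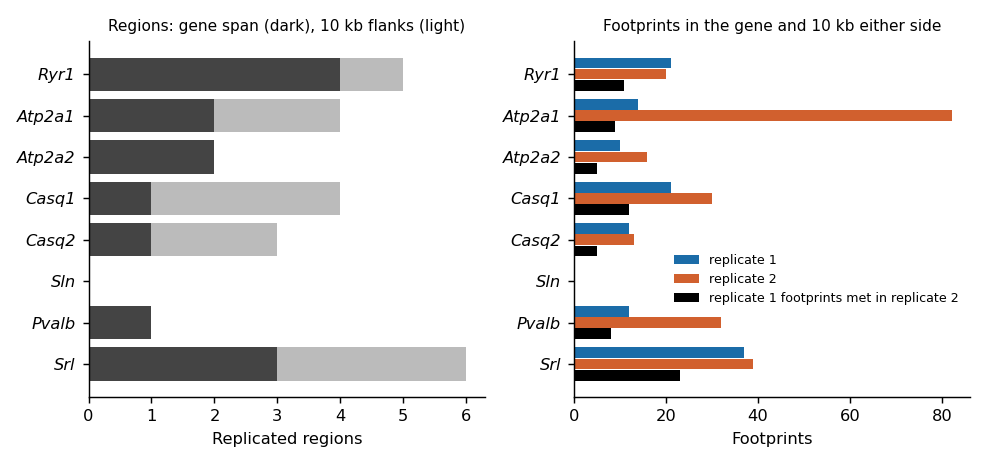
Left, number of replicated regions per gene inside the gene span (dark) and in the 10 kb flanks (light); right, number of footprints in the same windows per library, with those of replicate 1 met in replicate 2 in black. Srl leads in regions (6) and shared footprints (23), Sln has none, and Atp2a1 has 82 footprints in replicate 2 against 14 in replicate 1.

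Sequence motifs were counted on both strands in the central 200 bp of each of the 25 replicated regions and of all 32662, each pattern on its own, so that matches may overlap. CAGCTG was in 7 of 25 (28% beside 19.8%), GGGCGG in 8 (32% beside 34.7%), the NFAT core TGGAAA in 5 (20% beside 13.9%), the TEAD site GGAATG in 2 (8% beside 9.71%) and the CTCF core in 3 (12% beside 12.01%). Among these are a CAGCTG and a CTCF core match in the Pvalb region (chr15:78195121-78196000), which is as wide as its replicate 2 peak. Both matches lie outside the replicate 1 peak of that region (chr15:78195297-78195451). The NRF1 palindrome was in 1 (4% beside 0.821%) and TGACGTCA in 1 (4% beside 1.54%). Matches to the other 7 patterns numbered 0: the MEF2 box (2.17% of all regions), the CArG box of serum response factor (0.821%), the AP-1 site TGANTCA (6.59%), the glucocorticoid element (0.597%), the MEF3 site TCAGGTTTC (0.328%), the ERR site TCAAGGTCA (0.190%) and the NFI palindrome (0.0551%). These letters not being in a window says nothing of the factor. Of the 9 CAGCTG matches in these windows 0 lay in a shared footprint, and of the 12 GGGCGG matches 6 did. Over the whole length of the same regions, a count added after the windows had been read, CAGCTG had 13 matches with 1 in a shared footprint, the one of Srl given above, and GGGCGG had 20 with 7. Matches in shared footprints were not counted over all 32662 regions, so whether these shares are particular to the 8 genes was not tested. The whole length also held GGAATG in 5 regions, TGGAAA in 6 and a CArG box in 1, the Casq2 intron, while the other 6 patterns at 0 had 0 matches there too.

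The 8 genes were set beside 42 other genes of calcium handling, listed by role. Of these 42, 32 had a promoter peak in both libraries (54.2% of all genes did), 2 in replicate 1 alone (Stac3 and Jsrp1), 1 in replicate 2 alone (Cacnb1) and 7 in neither. All 6 genes of the store lumen, all 3 of store refilling, all 3 inositol trisphosphate receptor genes and all 4 of mitochondrial uptake had it in both. Among the partners of the release channel 9 of 14 did, and among the buffers and sensors 5 of 6. The lowest share was among the pump regulators and other pumps, with 2 of 6: the surface pumps Atp2b1 and Atp2b4 had the peak, whereas Atp2a3, a pump of other tissues, and the micropeptide genes Pln, Mrln and Strit1, which like Sln act on SERCA, had none. Ocm, a relative of parvalbumin, the junctional protein gene Trdn and the channel gene Ryr3 also had none.

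Ranked by the lower of both percentiles, the highest promoters of the list were those of widely used genes: the calcineurin subunit gene Ppp3ca had 20.6 and 12.6, the calmodulin genes Calm3 16.3 and 12.1 and Calm2 12.5 and 8.14, and the lumenal protein gene Calu 18.5 and 9.63. Over the list members with a peak, the median was 5.09 in replicate 1 (84.3rd percentile, 34 genes) and 4.06 in replicate 2 (86.5th percentile, 33 genes). Apart from Atp2a2 in replicate 1 and the outer start of Srl, the promoter peaks of the 8 genes were below these medians.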

How the data were processed

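Per the labels, nuclei of 2 gastrocnemius samples were treated for DNase-seq and the authors' files are on mm10. The authors deposited, per library, 2 peak lists with a signal value per peak, footprints that all carry the same score (used by position only), and runs of bases with a false discovery rate, a q-value, of at most 0.05. For aligner, callers, versions and scaling, nothing was given in the sources used here. All signal values were whole multiples of 0.0123 and 0.00657 (within 0.05 of a step), and the read depth stays unknown.

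Peaks, footprints and bases were joined to GENCODE release M21 with Python 3.11.15, pandas 2.3.3 and numpy 2.4.6, and sequences were read with pysam 0.24.0 from the RefSeq GRCm38 genome, whose build holds all peaks within its chromosome ends. RefSeq promoter sequences were listed for 5 of the 8 genes, and 6 of 6 matched that genome. Intervals met at an overlap of 1 bp or more. Interval code was tested on simulated data. Figures used matplotlib 3.10.9.

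The genes, lists and 13 motif patterns were chosen with earlier results of these data known; the CTCF core was added later. All 8 genes are named, regions where replicated, and from the pathway list the 4 highest promoters by the lower percentile and the first 4 by alphabet without a peak; the other pathway genes named (Ryr3, Strit1, Trdn, Stac3, Jsrp1, Cacnb1, Atp2b1 and Atp2b4) were chosen after their values were seen. Of the 42 names, 2 were matched by synonym (Strit1 and Stimate). With 1 group no test was run. Alternatives changed the peak list, window, overlap, q and library.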

Additional observations from a re-analysis of the deposited data

How the results depend on the processing

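No paired analysis was possible because the study has 1 group. Results are counts in 2 libraries of unknown read depth, so weak sites may be missed, and the cause of each change was not tested unless the setting itself fixes it. The count of genes with a promoter peak in both libraries, 4, was 7 in the longer lists and 3 to 5 under the other window, transcript and value settings; with 1 library left out it was 5 to 6. The pathway count of 32 lay between 26 and 36. The 25 replicated regions became 14 within the gene span and 56 within 50 kb, both fixed by the window size; they were 37 in the longer lists, 18 with an overlap of 50% of both peaks and 18 at or above the median value, and 35 to 53 with 1 library left out, which are the peaks of the other library and so not replicated by construction. Without regions at the starts of neighbouring coding genes, an alternative added after seeing the data, they were 23. The 73 shared footprints became 39 with an overlap of 50%, 36 within the gene span and 40 when only footprints inside peaks were used, and 127 to 232 with 1 library left out. The 11738 bases with q at or below 0.05 in both libraries became 8602 at 0.01 and 5855 at 0.001, and 14205 to 30353 with 1 library left out. Among promoter peaks alone, the lower percentile was 19.0 for Ryr1, 17.4 for Atp2a1, 49.4 for Atp2a2 and 8.84 for Casq2.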
